A study of Sus scrofa with 6 samples.

Results

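Elastin, tenascin C and tenascin-X are secreted proteins of the connective tissue that wraps muscle fibres, bundles and blood vessels. They were measured here by 7 probe sets of an Affymetrix porcine GeneChip, where a probe set is a group of short oligonucleotides read out together as 1 value. These are the 7 of the 550 probe sets in the authors' comparison table, and of 24123 in the value table, whose gene title names elastin (ELN, 5 probe sets), tenascin C (TNC, 1) or tenascin-X (TNXB, 1, listed under the symbol SBAB-514B12.2). RNA came from 3 soleus and 3 longissimus dorsi samples of 3 Meishan gilts of a single litter, slaughtered at 150 days of age and reared under the same feeding regimen. Longissimus dorsi, taken at the last rib, is classed by the labels as a fast glycolytic back muscle. The titles call the other muscle soleus, while the protocol writes SE for it and describes the deep part of it as oxidative. No treatment or genotype separates the groups, and each of the 3 pigs gave both muscles.

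Elastin is secreted as a soluble monomer, laid down on a scaffold of fibrillin microfibrils and cross-linked by enzymes of the lysyl oxidase family, which gives arteries, skin and the sheaths of muscle their recoil. Tenascin C is a multi-armed glycoprotein of tendon, the myotendinous junction and tissue under repair or mechanical load, where it alters how cells hold on to fibronectin. Tenascin-X is a very large relative of it that binds collagen fibrils, and its loss in humans causes a form of Ehlers-Danlos syndrome with lax joints and muscle weakness.

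Every value below is a log2 expression relative to the median of the same probe set over the 6 arrays, so it shows differences between arrays and no absolute level, and levels of different genes cannot be compared. Where the arrays of the muscles do not overlap, that median lies midway between the nearest arrays of either muscle, which then hold values of equal size and opposite sign. All 7 probe sets were selected on a difference between these same arrays, since the authors kept those with an unadjusted p-value under 0.05 and a fold over 1.5. The contrast between muscles is therefore given as a description of the members, without a test. Soleus replicate 3 stood apart from the other arrays, with an SD of 0.50 over probe sets against 0.24 to 0.31 elsewhere, so differences are also given without it. The markers of skeletal muscle fibres named in the authors' table were 1 of 11, the fast myosin heavy chain MYH4 (log2 difference -0.59, SE 0.18), so the labelled tissue could not be checked by level. In whole muscle, more cells of a type and more RNA per cell cannot be told apart.

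The tenascins and 1 elastin probe set had the cleanest separation of the muscles. Tenascin C, on probe set Ssc.16209.1.S1_at, read 0.90, 0.87 and 0.51 on soleus replicates 1, 2 and 3, against -0.51, -0.72 and -0.73 on those of longissimus dorsi. All 3 soleus arrays lay above all 3 longissimus dorsi arrays, and the gap of 1.02 between the nearest arrays was wider than the range within soleus (0.39) or within longissimus dorsi (0.22). The mean was 0.76 ± 0.22 in soleus and -0.65 ± 0.12 in longissimus dorsi (SD, n = 3 arrays each), a log2 difference of 1.41 (SE 0.17) or 2.66-fold. Without soleus replicate 3, the lowest of its muscle for this gene, the difference was 1.54.

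Tenascin-X, on probe set Ssc.19638.1.S1_at, had the largest difference of the 7. It read 0.81, 0.60 and 1.01 on the soleus arrays, against -0.60, -0.68 and -0.97 on the longissimus dorsi arrays. The muscles were again apart by more (1.20) than either varied within itself (0.41 in soleus and 0.37 in longissimus dorsi). The mean was 0.80 ± 0.21 in soleus and -0.75 ± 0.19 in longissimus dorsi (SD, n = 3 arrays each), a log2 difference of 1.55 (SE 0.18) or 2.94-fold. It was 1.45 without soleus replicate 3.

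The elastin probe set with the smallest p-value was Ssc.16926.1.S1_at (elastin 16926 from here on, and likewise for the others). It read 0.74, 0.71 and 0.62 on the soleus arrays, against -0.62, -0.89 and -0.93 on the longissimus dorsi arrays. The soleus arrays spanned 0.12 and the longissimus dorsi arrays 0.30, while the gap between the muscles was 1.25. The mean was 0.69 ± 0.06 in soleus and -0.82 ± 0.17 in longissimus dorsi (SD, n = 3 arrays each). The log2 difference was 1.51 (SE 0.15), or 2.85-fold, and 1.54 without soleus replicate 3. Its pooled SD within muscles of 0.13, the smallest of the members, lay at the 12.5th percentile of all probe sets tested, whose median was 0.24. Picking the smallest p-value favours a small SD, so this evenness is partly built into the choice. Within longissimus dorsi alone, elastin 16889 had the smaller SD (0.15, against 0.17).

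The other elastin probe sets did not give the same picture. Ssc.16570.1.S1_at read 1.502, 0.14 and 0.59 on soleus replicates 1, 2 and 3, against -0.65, -0.14 and -0.91 on those of longissimus dorsi. Its gap of 0.29 was narrower than the range of 1.36 within soleus, and its log2 difference of 1.31 (SE 0.35) became 0.93 without soleus replicate 1 and 1.39 without soleus replicate 3. Ssc.16889.1.S1_at read 0.98, 0.12 and 1.33 on the soleus arrays, against -0.23, -0.12 and -0.41 on the longissimus dorsi arrays. The difference here was 1.06 (SE 0.30), or 0.80 without soleus replicate 3, and the gap of 0.23 was again small beside the soleus range of 1.21. On both, soleus replicate 2 lay close to the nearest longissimus dorsi array, although the same array was well above it on elastin 16926.

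Ssc.16839.1.S1_at ordered the soleus arrays in a further way. It read 0.14, 0.48 and 0.81 on soleus replicates 1, 2 and 3, against -0.14, -0.52 and -0.63 on those of longissimus dorsi, a log2 difference of 0.91 (SE 0.22), or 0.74 without soleus replicate 3. Here soleus replicate 1, the highest soleus array on elastin 16570, was the lowest.

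The remaining probe set titled elastin, Ssc.14573.1.S1_at, ran the other way. Whether it measures an elastin transcript was not checked, since its sequence was not used here, and the name elastin 14573 follows its title alone. It read -0.27, -0.22 and -0.51 on the soleus arrays, against 0.22, 1.38 and 1.12 on the longissimus dorsi arrays. The muscles did not overlap, but longissimus dorsi replicate 1 lay nearer to the soleus arrays than to the other arrays of its muscle. The mean was -0.33 ± 0.15 in soleus and 0.91 ± 0.61 in longissimus dorsi (SD, n = 3 arrays each), a log2 difference of -1.24 (SE 0.29). It was -1.59 without longissimus dorsi replicate 1, -1.01 without replicate 2 of that muscle and -1.16 without soleus replicate 3. A mean over all 5 elastin probe sets, which gives this one equal weight, had a difference of 0.71 in place of 1.51, and their median was 1.06. Both values rest on that title. Array by array, that mean over probe sets was 0.62, 0.25 and 0.57 in soleus, against -0.28, -0.06 and -0.35 in longissimus dorsi, so the muscles still did not overlap.

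**Figure D1:**
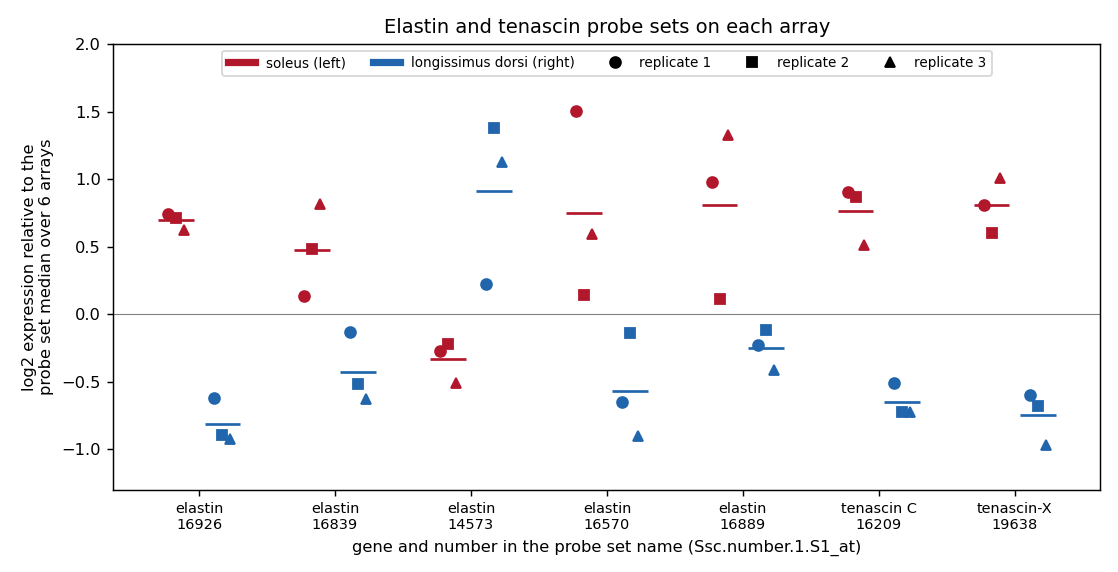
Log2 value of each array, centred on the probe set's median (vertical axis), for the 5 elastin, 1 tenascin C and 1 tenascin-X probe sets (horizontal axis), with soleus in red on the left of each pair and longissimus dorsi in blue on the right. Symbols are the 3 replicate arrays and bars their mean. Soleus lies above longissimus dorsi on 6 probe sets and below it on elastin 14573, and the soleus arrays are close together on elastin 16926 and far apart on elastin 16570 and 16889.

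All 5 elastin probe sets are titled by similarity to a predicted horse elastin protein and belong to 1 UniGene cluster, Ssc.18510, a grouping of transcript sequences held to come from the same gene. They therefore share a target as far as this annotation goes, and are not 5 independent measurements of elastin. The numbers in their names differ from each other and from that of the cluster. The cluster stands out in the authors' table in a pair of ways. Its 5 probe sets were the most of any cluster there, with 4 for the next largest. Of the 43 clusters with at least 2 listed probe sets, 42 had all of them on the same side, and elastin was the 1 with both directions. Of the 42 others, 37 had just 2 probe sets and so fewer chances to disagree. No test was made of this count.

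Pairs of elastin probe sets also lay further apart over the arrays, by their median, than pairs in other clusters. The root mean square (RMS) difference over the 6 arrays between pairs of the 4 probe sets higher in soleus was 0.39 to 0.65, with a median of 0.48 over 6 pairs. Over the 55 pairs of probe sets in the 42 other clusters it ran from 0.04 to 0.88, with a median of 0.20. Taking away each muscle's mean leaves only the departures of arrays within a muscle, which the selection on the contrast fixes less directly. These departures differed by 0.24 to 0.61 (median 0.40) between the 4 elastin probe sets, against a median of 0.15 and a range of 0.04 to 0.55 in the other clusters. Pairs with elastin 14573 differed by 0.45 to 0.56 in their departures and by 1.24 to 1.49 in their values. A wide spread within muscles raises these RMS differences. The pooled SD lay at percentile 65.9 for elastin 16839, 86.4 for 14573, 93.8 for 16570 and 87.4 for 16889, and its part was not tested. Pairs within a cluster share arrays and, at times, a probe set, so the figures are descriptive.

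**Figure D2:**
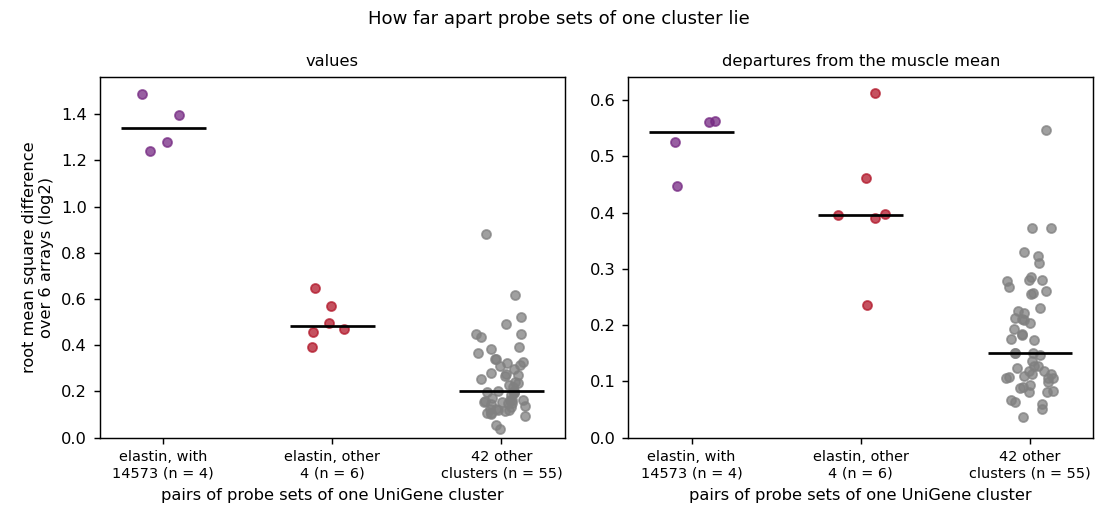
RMS difference over 6 arrays (vertical axis, log2) between pairs of probe sets of a single UniGene cluster, for the values (left panel) and for departures from the muscle mean (right panel). Points are pairs and bars medians. In both panels the elastin pairs lie above the median of the 55 pairs in other clusters, and the 4 pairs with elastin 14573 have RMS differences of 1.24 to 1.49 in the values.

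**Figure D3:**
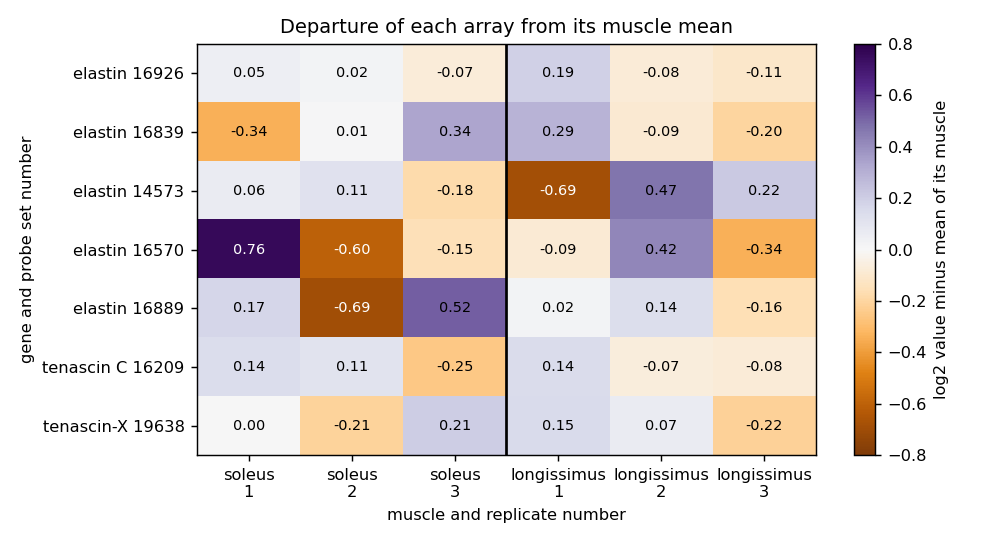
Log2 value of each array minus the mean of its muscle, for the 7 probe sets (rows) on 3 soleus and 3 longissimus dorsi arrays (columns), with the scale given by the colour bar. The widest departure on tenascin C, tenascin-X and elastin 16926 is -0.25, while departures reach 0.76 on elastin 16570 and -0.69 on elastin 14573 and 16889.

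Read against the whole array, the members sat far out on the axis between the muscles, as probe sets kept for that contrast must. The muscles did not overlap on 7 of 7 members, 6 with soleus higher and 1 with soleus lower, where 6.08% of the 23935 probe sets tested had all soleus arrays above and 8.11% all below. Nor did they overlap on any of the 549 kept probe sets that were tested. A difference of 2-fold or more towards soleus was seen on 5 members, against 0.798% of probe sets, and towards longissimus dorsi on 1, against 0.614%. In a limma fit across all probe sets, 0 of 7 members passed a Benjamini-Hochberg adjusted p of 0.05, which 0.00836% of probe sets did (0.00418% higher and 0.00418% lower in soleus). An unadjusted p under 0.05 with a fold of 1.5 or more was met by 6 members on the side of soleus, against 2.89% of probe sets, and by 1 on the side of longissimus dorsi, against 2.2%. After quantile normalization 1 member, tenascin-X, passed the adjusted threshold, against 0.0125% of probe sets that passed it with higher values in soleus. Since the same contrast chose the members, nothing follows from any of these counts. The median difference over all probe sets was -0.03, and 45.8% were higher in soleus.

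Within each single array, the place of a member among all 23935 centred values shows how far out it lay on that array. Tenascin-X was at percentiles 97.7, 97.8 and 97.2 of the soleus arrays, against 2.59, 0.95 and 0.32 of the longissimus dorsi arrays. Tenascin C was at percentiles 98.3 and 99.2 on soleus replicates 1 and 2 and 88.5 on replicate 3, against 0.77 to 4.09 in longissimus dorsi. Its value on replicate 3 was itself lower (0.51, against 0.90 and 0.87). The values of that array are also spread wider, so a given high value ranks lower there. Elastin 14573 was at percentiles 9.88 to 14.7 in soleus, against 81.9 on longissimus dorsi replicate 1, 99.95 on replicate 2 and 99.59 on replicate 3.

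Ranked by difference, tenascin-X was the 34th of all probe sets on the side of soleus, elastin 16926 the 40th and tenascin C the 48th. The other elastin probe sets on that side ranked 71st, 166th and 274th, and elastin 14573 ranked 56th on the side of longissimus dorsi. In the authors' deposited table the p-values were 0.000123 for elastin 16926, 0.000622 for tenascin C and 0.000681 for tenascin-X, at ranks 6, 14 and 15 of 550. Just inside the table's p-value limit of 0.05 lay elastin 16570 (0.0458) and elastin 16889 (0.0462), and the smallest fold in the authors' deposited table for a member was 1.88, for elastin 16839. Probe sets just outside these limits carry no title in the files, so elastin or tenascin probe sets among them were not analysed here.

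**Figure D4:**
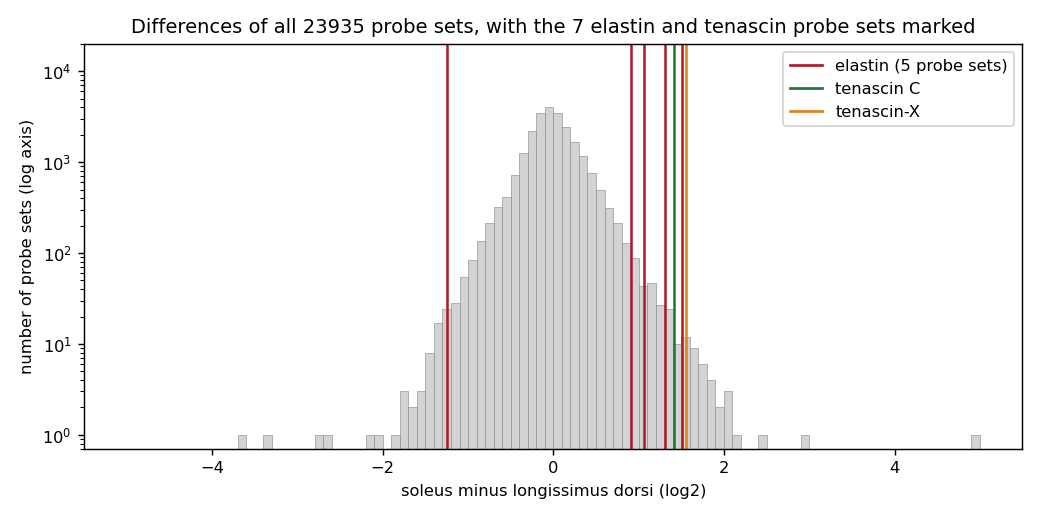
Distribution of the log2 difference, soleus minus longissimus dorsi, over all 23935 probe sets tested (grey bars, number of probe sets on a log axis), with the 7 elastin and tenascin probe sets as vertical lines. The 6 lines on the right lie between 0.91 and 1.55, and the elastin line on the left at -1.24.

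The array by array profile of elastin 16926 was near to that of each tenascin. Over all 23935 probe sets, the one nearest to this elastin probe set was tenascin C, at an RMS difference of 0.16 over the 6 arrays, and tenascin-X followed at 0.19 with 2 probe sets nearer. The elastin probe set was in turn the nearest of all to tenascin C and to tenascin-X. The tenascins lay further from each other (0.26), with 7 probe sets nearer to tenascin C and 10 nearer to tenascin-X. Their departures from the soleus mean had opposite signs on replicate 2 (0.11 for tenascin C, -0.21 for tenascin-X) and replicate 3 (-0.25 and 0.21). The other elastin probe sets were further from elastin 16926, at 0.39, 0.49 and 0.57 for those higher in soleus, with 65, 245 and 678 probe sets nearer. A large difference between muscles in common makes profiles alike by itself, so this is a description over 6 arrays.

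Outside the members, 353 named probe sets of the authors' table were searched for the 3 genes nearest to each member gene. For elastin these were trophoblast glycoprotein, a membrane protein that dampens Wnt signalling (RMS 0.16), a homeobox gene titled homeobox protein A10 and given the symbol HOXD10A (0.23), and slow-type myosin binding protein C, a thick filament protein (0.27). For tenascin C the 3 genes were the homeobox gene (0.17), trophoblast glycoprotein (0.20) and the type XII collagen chain COL12A1, which coats collagen fibrils (0.22). For tenascin-X they were the secreted Wnt antagonist SFRP4 (0.23), the membrane protein STEAP (0.23) and fibronectin type III domain containing 1 (0.24). Their own differences between muscles ran from 1.06 to 1.73.

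Genes that build the elastic fibre beside elastin were looked up in the authors' table, which names a gene only where its probe set was kept for differing. Of the 549 kept probe sets that were tested, 323 were higher and 226 lower in soleus. Of 26 listed genes, 4 were named, all with higher means in soleus, by 0.84 to 1.37 (median 1.12). MFAP4, a microfibril-associated glycoprotein that binds elastin, read 1.04, 0.28 and 1.16 on the soleus arrays, against -0.63, -0.28 and -0.43 on the longissimus dorsi arrays. LOXL3, a lysyl oxidase of the family that cross-links elastin and collagen, read 0.89, 0.27 and 1.68 in soleus, against -0.29, -0.70 and -0.27 in longissimus dorsi. For both, the muscles did not overlap, as on all 549 kept probe sets, and soleus replicate 2 was the lowest of its muscle. FBLN2, a fibulin of the elastic fibre, differed by 0.97 (SE 0.28), and biglycan (BGN), a small proteoglycan bound to microfibrils, by 0.84 (SE 0.20).

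Enzymes and inhibitors of elastin breakdown had 3 of 15 genes named, with smaller differences of 0.61 to 0.77. They were MMP14, a membrane-bound matrix protease (0.77, SE 0.23), the lysosomal protease cathepsin B (0.67, SE 0.21) and TIMP3, a matrix-bound inhibitor of metalloproteinases (0.61, SE 0.18). Among 20 genes of the tenascin family and its binding partners, 2 were named. Fibronectin (FN1), whose cell-binding function tenascin C modulates, differed by 1.33 (SE 0.25), and the integrin subunit ITGB3, part of a receptor for both proteins, by 0.82 (SE 0.22).

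Fibrillar collagens and other partners of tenascin-X had 9 of 14 genes named on 13 probe sets, again all with higher means in soleus, with a median of 1.26 over genes. Dermatopontin (DPT), a small protein that binds collagen and decorin, differed by 1.48 (SE 0.25), and the tenascin-like fibril partner COL14A1 by 1.23 (SE 0.32). Of the 21 regulators, TGFB1 and TGFB3 were named, growth factors that raise elastin and tenascin synthesis in fibroblasts. TGFB1 differed by 0.89 (SE 0.17) and TGFB3 by 0.99 (SE 0.25). Over these 5 lists 0 of 24 probe sets passed the adjusted limma threshold. Every named gene had been kept for its difference, so neither the counts nor the common direction is evidence on the lists.

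**Figure D5:**
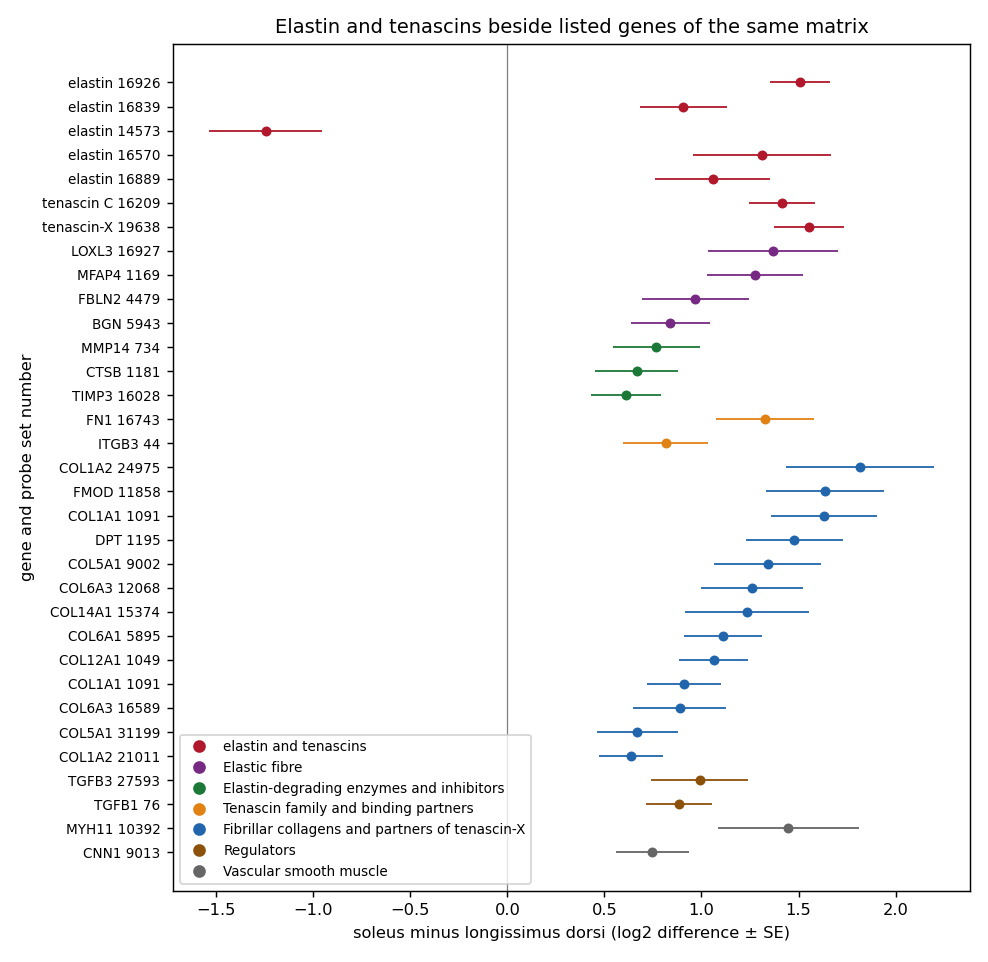
Log2 difference, soleus minus longissimus dorsi (horizontal axis, points with bars of 1 SE), for the 7 elastin and tenascin probe sets at the top and for the probe sets of listed genes below, coloured by list. The lists drawn are elastic fibre, elastin breakdown, tenascin partners, tenascin-X partners, regulators and vascular smooth muscle. Other marker lists, with MYH4 (-0.59) and MBP (-0.91) lower in soleus, are not drawn. The listed genes drawn lie between 0.61 and 1.82, and elastin 14573 alone of the points lies on the side of longissimus dorsi.

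The order of the arrays within soleus also differed between members. On 19 of the 24 probe sets of these 5 lists (79.2%) soleus replicate 2 was the lowest soleus array, and on 19 soleus replicate 3 was the highest. All 24 were kept for being higher in soleus, and of the 323 probe sets so kept, replicate 2 was the lowest on 49.8% and replicate 3 the highest on 61.6%, so the order is not free of the selection. Among the 6 members higher in soleus, replicate 2 was the lowest on 3 (elastin 16570 and elastin 16889, and tenascin-X) and replicate 3 the highest on 3. On tenascin C and elastin 16926, replicate 3 was the lowest. Soleus replicate 3 is the array with the widest values, and its part in these orders was not tested.

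The named markers of vascular smooth muscle, tendon and fibroblasts, which can make elastin or tenascin, had higher means in soleus. They too were kept for their difference between muscles. Of 9 vascular smooth muscle markers, 2 were named. Smooth muscle myosin MYH11, a contractile protein of artery walls, read 1.54, 0.34 and 0.27 on the soleus arrays, against -0.95, -0.27 and -0.98 on the longissimus dorsi arrays. Calponin (CNN1), an actin-binding protein of smooth muscle, read 0.77, 0.18 and 0.39 in soleus, against -0.18, -0.34 and -0.39 in longissimus dorsi. The profile of MYH11 was close to that of elastin 16570 (RMS 0.21), with the same high soleus replicate 1, and further from the other members, at 0.45 to 1.46. CNN1 gave another order, with elastin 16839 the nearest (0.36) and elastin 16570 at 0.43, between tenascin C (0.38) and tenascin-X (0.45). These RMS differences include the difference between muscles on which all were kept. In departures from the muscle means alone, MYH11 was again nearest to elastin 16570 (0.17). For CNN1 the order changed, with elastin 16926 (0.17), tenascin-X (0.19) and tenascin C (0.19) the nearest and elastin 16839 at 0.35.

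Of 11 tendon and myotendinous junction markers 5 were named, FMOD, CLEC3B, COL12A1, THBS4 and COMP, with differences of 0.59 to 1.64. Of 9 fibroblast markers 3 were named, COL1A1, COL1A2 and THY1, with differences of 0.64 to 1.63 by the probe set of smallest p-value. FMOD, COL12A1, COL1A1 and COL1A2 are the same probe sets as in the list of tenascin-X partners, and so add nothing to it. In the nerve list 1 of 7 was named, myelin basic protein (MBP), at -0.91, and in the leukocyte list 1 of 6, LAPTM5, at 0.65. None of the 6 endothelial or 5 adipocyte markers was named. Markers outside the authors' table carry no name in the files, so the lists cannot be summed, and the part of these cells in the elastin and tenascin differences was not tested.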

How the data were processed

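Biotin-labelled cRNA of 6 muscle samples was put on Affymetrix porcine arrays, as the labels' protocols state. MAS5 version 2.3.1 is named, with no role, in the submitters' processing notes. How probes were summarised and arrays scaled is not given in the sources used here. All deposited log2 values are centred on each probe set's median over the 6 arrays (found from the values, within 5e-07), so signal over background is unknown. The p-values in the authors' table come, per the file headers, from an unpaired test without adjustment, with limits of 0.05 on the p-value and 1.5 on the fold. The deposited fold is the difference between the muscle means of the log2 values, higher minus lower, turned back into a ratio. An equal-variance unpaired test on the values matched its p-values within 4.74e-07.

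The 188 control probe sets were left out and 23935 fitted as soleus minus longissimus dorsi. The fit used limma 3.58.1 (R 4.3.3; lmFit, eBayes, Benjamini-Hochberg adjustment) and was tested on simulated data. SEs are from this fit, SDs are over 3 arrays. No label ties a replicate number to a pig, so arrays were taken as unpaired although the muscles came from the same pigs, which are littermates. The number of arrays limits the precision.

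Members were matched by title. Named genes followed a written rule: all members, the 3 nearest named genes per member gene by RMS difference (taking, for each member gene, the probe set of smallest p-value), and up to 6 genes per list. Beyond that rule, some list members are given as ranges and the smooth muscle RMS values were added after values were seen. The members, lists and rules were chosen with earlier results of these data known. List genes were matched to titles by hand. Alternatives were quantile normalization, centring arrays, a replicate block, the authors' test, other summaries of probe sets or arrays, and leaving out each array. No probe, promoter or protein sequence was used.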

Additional observations from a re-analysis of the deposited data

How the results depend on the processing

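The median over probe sets was chosen after seeing the data. Over 7 members, 71 of 74 values under alternative settings moved by less than 1 SD between replicates, 3 moved by more and 0 changed sign, which the choice of members makes likely. The 3 were elastin as the mean (0.71) or median (1.06) over its 5 probe sets, which includes elastin 14573, and tenascin C as the difference of medians (1.59). Most of the other values could not have moved by 1 SD. The replicate block returns the same difference here, and leaving out 1 of 3 arrays shifts it by less than 1 pooled SD. For each tenascin, the mean over probe sets is its only probe set. The count of 71 therefore says little about dependence on the processing. Leaving out each array gave 1.45 to 1.60 for elastin 16926, 1.34 to 1.54 for tenascin C and 1.44 to 1.66 for tenascin-X. The 2 probe sets past the adjusted limma threshold became 7 with the replicate block, 6 with quantile normalization, and from 1 to 4 when an array was left out (1 without longissimus dorsi replicate 1, 4 without soleus replicate 3). They were 1219 at an unadjusted p under 0.05 and 1.5-fold, with 692 higher and 527 lower in soleus. The causes were not tested. With the replicate block, 0 members passed. The numbers were not taken as pairs because no label ties them to a pig. Deviations of same-numbered arrays correlated at -0.14, 0.11 and 0.25 over probe sets. Arrays of different numbers were not compared, so these values cannot decide on pairing. Without an array 0 members passed in any of the 6 fits, and 0 with the authors' test after adjustment, while 7 of 7 had an unadjusted p under 0.05 in each. From 987 to 3521 of 23935 probe sets had one in these fits, and the members were kept on such a p in these same arrays.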

Other observations

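Probe set names on this array carry a UniGene number from the time of design. For 335 of 546 listed probe sets (61.4%) it equals the UniGene cluster in the authors' table. Among the members it does so for tenascin C (16209) alone. The elastin names carry 16926, 16839, 14573, 16570 and 16889 against cluster 18510, and that of tenascin-X carries 19638 against 28161. A probe set without a title, Ssc.18510.1.S1_at, carries the number of the elastin cluster, and another, Ssc.28161.1.A1_at, that of the tenascin-X cluster. No gene is assigned to either here, and they were picked out after the members were known. Ssc.18510.1.S1_at read -0.17, 0.24 and 1.22 on soleus replicates 1, 2 and 3, against 0.15, -0.16 and -0.15 on those of longissimus dorsi, so that the muscles overlapped and a single soleus array was high. Ssc.28161.1.A1_at read -0.04, 0.04 and 0.46 on the soleus arrays, against 0.13, -0.04 and -0.11 on the longissimus dorsi arrays. Both high values are on soleus replicate 3, the array with the widest values.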
